A study of Mus musculus with 12 samples.

Results

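The autophagy machinery is described here as 37 genes that encode the initiation complex, the class III PI3-kinase complexes, the lipid transfer and WIPI proteins, the conjugation enzymes, the ATG4 proteases, the ATG8 proteins and the soluble cargo receptors. The genes were chosen by name, with earlier results of these data known. All 37 were present among the 14264 genes of the authors' deposited table of each comparison. The cells were bone marrow-derived macrophages, grown from mouse marrow. They carried a short hairpin against MOF (shMOF), the lysine acetyltransferase encoded by Kat8, or a control hairpin (shCTRL), and were treated with bacterial lipopolysaccharide (LPS) at 100 ng/ml for 3 h or left unstimulated. The 4 groups were shMOF with LPS, shCTRL with LPS, shMOF unstimulated and shCTRL unstimulated, with 3 libraries each and 12 in all. All groups carried a hairpin in cells that the labels otherwise call wild type, and the sources used here do not give strain, age or sex of the mice. The labels name 1 hairpin against MOF without a rescue, so loss of MOF and any off-target effect cannot be told apart. Each deposited comparison sets shMOF against shCTRL within 1 LPS state, and asks which transcripts depend on MOF in that state. The tables give no values per library, so each gene is shown by its mean normalized count, its log2 fold change (shMOF over shCTRL, above 0 when higher in shMOF) and the standard error (SE) of that change. Whether the libraries of a group came from separate animals or cultures is not stated, and p-values measure only the spread between these libraries.

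Macroautophagy is the route by which a cell encloses cytosol, organelles or microbes in a double membrane and delivers them to the lysosome. The ULK1 kinase complex starts the process, the class III PI3-kinase VPS34 (Pik3c3) marks the growing membrane with phosphatidylinositol 3-phosphate, and ATG2 and ATG9 supply lipid. Ubiquitin-like conjugation then attaches ATG8 proteins (the LC3 and GABARAP families) to the membrane, where cargo receptors such as p62 (Sqstm1) and optineurin (Optn) dock. In macrophages the pathway clears intracellular bacteria and damaged mitochondria and limits inflammasome activity, and ATG16L1 and ATG5 also serve LC3-associated phagocytosis.

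The stretches of DNA at the starts of 5 of these genes are printed because the genes either changed most with the hairpin or share a start region with a gene that did. Sqstm1, Nbr1 and Atg3 each begin beside a gene on the opposite strand, and for these pairs the DNA between the starts that neither GENCODE nor RefSeq places in a transcript is shown. For Nbr1 it ends at the RefSeq start, which lies before the GENCODE start given below, so it is shorter than the gap between the GENCODE starts. For Optn and Gabarapl1 it is the 200 bases upstream of the first start in either annotation, which for Optn is the RefSeq start and lies before the GENCODE start given below. Sequences are from RefSeq on GRCm38.p6, written 5′ to 3′ on the strand of the autophagy gene. They were picked after the values were seen. The coordinates are chr11:50210828-50210889 on the minus strand (Sqstm1 and Mgat4b), chr11:101551956-101552106 on the plus strand (Nbr1 and Brca1), chr16:45158707-45158784 on the plus strand (Atg3 and Slc35a5), chr2:5064118-5064317 on the minus strand (Optn) and chr6:129532960-129533159 on the plus strand (Gabarapl1). Capitals mark matches to 1 of 4 motifs searched on both strands.
Sqstm1: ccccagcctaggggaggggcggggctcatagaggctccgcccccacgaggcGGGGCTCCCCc
Nbr1: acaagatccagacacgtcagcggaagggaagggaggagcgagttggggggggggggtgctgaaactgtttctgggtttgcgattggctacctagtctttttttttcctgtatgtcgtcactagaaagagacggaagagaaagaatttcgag
Atg3: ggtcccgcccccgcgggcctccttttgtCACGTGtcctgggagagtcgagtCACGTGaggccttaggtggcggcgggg
Optn: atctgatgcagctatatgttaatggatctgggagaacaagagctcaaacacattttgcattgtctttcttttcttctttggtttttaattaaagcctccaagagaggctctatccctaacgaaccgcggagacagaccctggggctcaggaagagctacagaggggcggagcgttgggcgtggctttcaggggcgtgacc
Gabarapl1: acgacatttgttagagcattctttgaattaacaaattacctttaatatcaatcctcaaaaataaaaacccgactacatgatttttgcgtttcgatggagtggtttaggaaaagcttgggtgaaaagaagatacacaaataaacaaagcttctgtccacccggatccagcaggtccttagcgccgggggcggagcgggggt
The Sqstm1 stretch held 1 match to the NF-kB consensus, and the Atg3 stretch held 2 E-box cores, the letters CACGTG that also lie in the element read by TFEB, a regulator of lysosomal and autophagy genes. The Nbr1, Optn and Gabarapl1 stretches held none of the 4 motifs. Windows from 250 bases before to 50 after a start were available for 31 of the 37 genes, as 35 of 32851 windows. The E-box core stood in 11.4% of the windows of the autophagy genes (Atg3, Atg5, Atg7 and Atg14) and in 7.15% of all windows. The NF-kB consensus stood in 8.57% of them (Sqstm1, Tax1bp1 and Atg16l2) and in 4.51% of all. The antioxidant response core TGACNNNGC stood in 11.4% (Ulk2, Atg13, Map1lc3b and Tax1bp1) and in 12.4% of all. The AP-1 motif TGANTCA, which can share letters with the antioxidant response core, stood in none of the 35 windows and in 7.81% of all. A match is a run of letters and not a site of binding. The windows of the autophagy genes had a median GC content of 60% and all windows one of 52.7%.

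Both the target and the cell type were visible in the tables. Kat8 had a log2 change of -2.31 (adjusted p = 4.86e-67, SE 0.13) at LPS 3 h and of -2.25 (adjusted p = 2.08e-101, SE 0.10) in unstimulated cells per the authors' deposited table, that is, 0.201 with LPS and 0.210 without as a fold of shCTRL. All 10 macrophage markers listed were present, and 8 were higher in shMOF at LPS 3 h and 10 in unstimulated cells, with median log2 fold changes of 0.30 with LPS and 0.38 without, per the authors' deposited table. For these and the marker counts that follow, 28.1% of all genes were higher and 20% lower at LPS 3 h. Unstimulated, 21.3% of all genes were higher and 17.8% lower. None of the B cell, mast cell and basophil or erythroid markers was in the tables, nor were 6 of 8 neutrophil, 4 of 5 dendritic cell and 3 of 4 T cell markers, and the 4 of these lists that were present had means of at most 166.9, with Zbtb46 higher at LPS 3 h and the other 3 called in neither state. All 4 fibroblast markers were present, with 3 higher at LPS 3 h and 2 higher unstimulated. The 4 progenitor markers were all present, with 1 higher and 2 lower at LPS 3 h, 1 higher and 3 lower unstimulated, and median log2 fold changes of -0.90 with LPS and -0.81 without, per the authors' deposited table. Proliferation markers moved most, with 1 higher and 6 lower of 8 at LPS 3 h, 8 of 8 lower unstimulated, and median log2 fold changes of -1.11 with LPS and -1.92 without, per the authors' deposited table. The part of these shifts in the results below was not tested. In bulk RNA, fewer cells of a type and less RNA per cell cannot be told apart.

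The autophagy genes were expressed at middle to high levels. Their mean normalized counts ranged from 198.1 (Atg10) to 78035 (Sqstm1) with a median of 1250, against a median of 446.3 for all genes, per the authors' deposited table, so that all 37 passed the minimum mean of 10 set for the test of the difference. To compare genes, these means were divided by exon length. Sqstm1 then stood at 23252 per kb, Gabarap at 6803, Gabarapl1 at 1911 and Tax1bp1 at 1236, and these 4 lay above the 90th percentile of all genes. These 4 receptor and ATG8 genes thus took the top of the list, followed by Atg3 (771.4 per kb). The other receptor and ATG8 genes lay between 177.3 (Calcoco1) and 542.6 per kb (Nbr1). Atg2b (46.4 per kb) and Atg16l2 (38.3 per kb) were lowest. In all, 33 of the 37 genes lay above the 50th percentile. The set of libraries behind the mean is not stated, so these levels cannot be split by group.

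**Figure D1:**
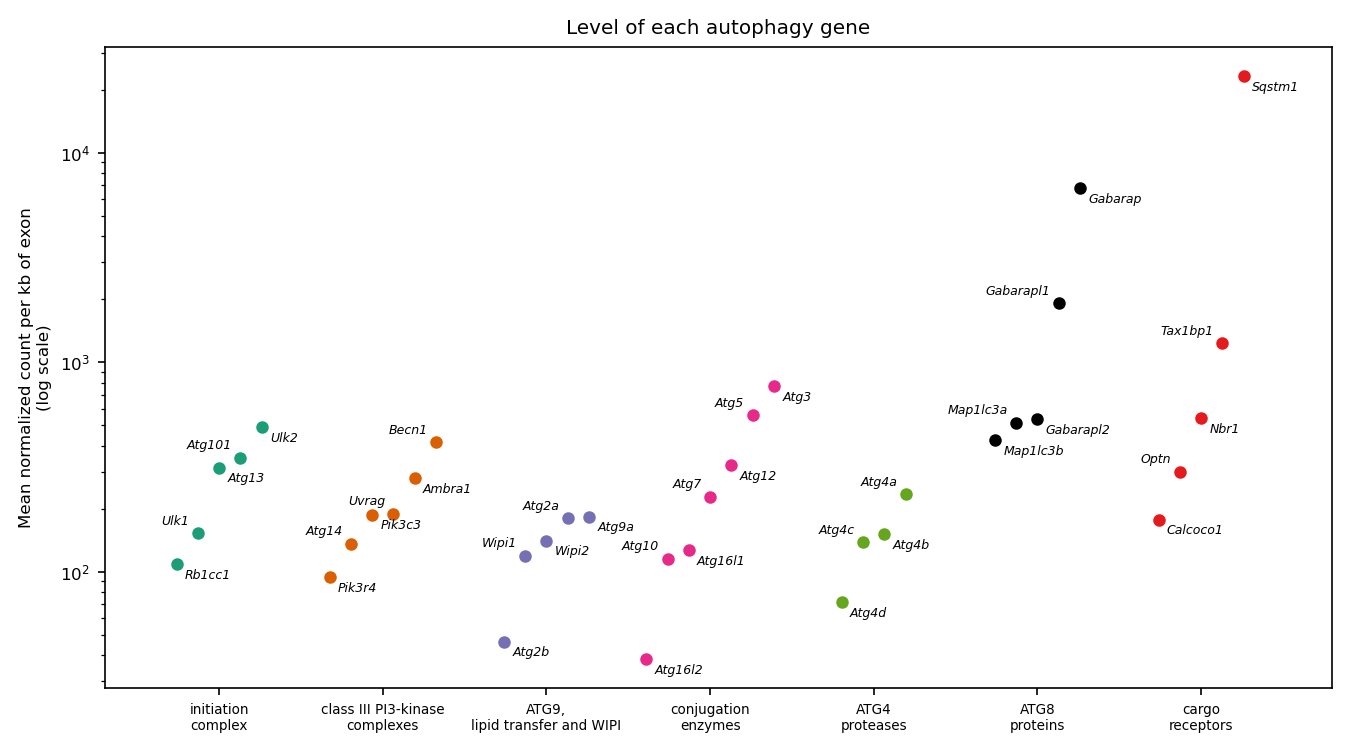
Mean normalized count per kb of exon (log scale) for each of the 37 autophagy genes, per the authors' deposited table, grouped by role, with 1 point a gene. Sqstm1 at 23252 and Gabarap at 6803 stand at the top, and Atg16l2 at 38.3 is lowest.

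With the hairpin against MOF, 25 of the 37 autophagy genes changed at LPS 3 h (67.6%), 12 of them higher and 13 lower in shMOF. Of all 13987 genes tested there, 48% changed, 28.1% higher and 20% lower. In unstimulated cells 18 changed (48.6%), 13 higher and 5 lower, where 39.1% of all 14264 genes changed, 21.3% higher and 17.8% lower. A gene counts as changed when the authors' deposited table gives it an adjusted p under 0.05, with no minimum fold. Here and below, rose, fell, higher and lower set shMOF against shCTRL within 1 LPS state, and never LPS against no LPS. The changes were small, and none of the 37 genes reached a 2-fold change in either state. The median absolute log2 fold change was 0.20 at LPS 3 h and 0.15 unstimulated for the autophagy genes, against 0.25 at LPS 3 h and 0.21 unstimulated for all genes, per the authors' deposited table. SEs were also smaller, with medians of 0.061 for the autophagy genes in both states and of 0.085 (LPS 3 h) and 0.086 (unstimulated) for genes with a mean of at least 10. With the adjustment limited to genes with a mean of at least 50, the shares called lay closer. At LPS 3 h they were 67.6% of the autophagy genes and 59.2% of all such genes. In unstimulated cells they were 54.1% of the autophagy genes and 50.1% of all such genes.

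Directions were mixed in both states. Of the 13 genes called in both, 5 were higher in both (Becn1, Ambra1, Atg16l1, Map1lc3b and Gabarapl1, of which Becn1 and Ambra1 each passed in 1 state once fold changes were centred) and 4 were lower in both (Ulk2, Atg13, Atg2b and Atg5). The other 4 (Ulk1, Pik3r4, Atg14 and Nbr1) were lower in shMOF at LPS 3 h and higher in shMOF in unstimulated cells, and none went the opposite way. Once fold changes were centred, Pik3r4 and Atg14 no longer passed in unstimulated cells. Centring also added calls. Tax1bp1 then passed as lower in unstimulated cells (-0.13, adjusted p = 0.0311) and kept its rise at LPS 3 h, which is the opposite way. Wipi2 then passed as lower at LPS 3 h (-0.11, adjusted p = 0.0343), and Atg10 as lower in unstimulated cells (-0.26, adjusted p = 0.0291). Another 12 were called only at LPS 3 h, 5 only in unstimulated cells and 7 in neither. Only the test of the difference shows that an effect depended on LPS. That difference (LPS 3 h effect minus unstimulated effect) was called for 16 of the 37 genes (43.2%), 4 with a positive and 12 with a negative value, against 30.6% of 12994 genes tested, 18.2% positive and 12.4% negative. Its median was -0.10 for the autophagy genes and 0.01 for all genes. With the adjustment limited to genes with a mean of at least 50, it was called for 45.9% of the autophagy genes and 36.4% of all such genes. Across the 37 genes the effects of both states had a Pearson r of 0.35 and a Spearman rho of 0.31, against an r of 0.49 over all 12994 genes, given as a description since genes are not independent.

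Many of these calls were of small changes: 12 of the 25 at LPS 3 h and 14 of the 18 unstimulated were under 0.25 on the log2 scale. When the null was widened to an absolute change of at most 0.25, 7 genes remained at LPS 3 h (Optn, Sqstm1 and Gabarapl1 higher, Uvrag, Atg5, Nbr1 and Atg13 lower) and 1 in unstimulated cells (Gabarapl1 higher), against 15.6% of all genes with LPS and 9.39% without. The difference remained for 4 genes, Optn and Sqstm1 with positive values and Nbr1 and Uvrag with negative ones, against 6.88% of all genes. Centring the fold changes on the median of all genes, a shift of 0.03 in each state, left 9 higher and 7 lower calls unstimulated in place of 13 and 5.

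**Figure D2:**
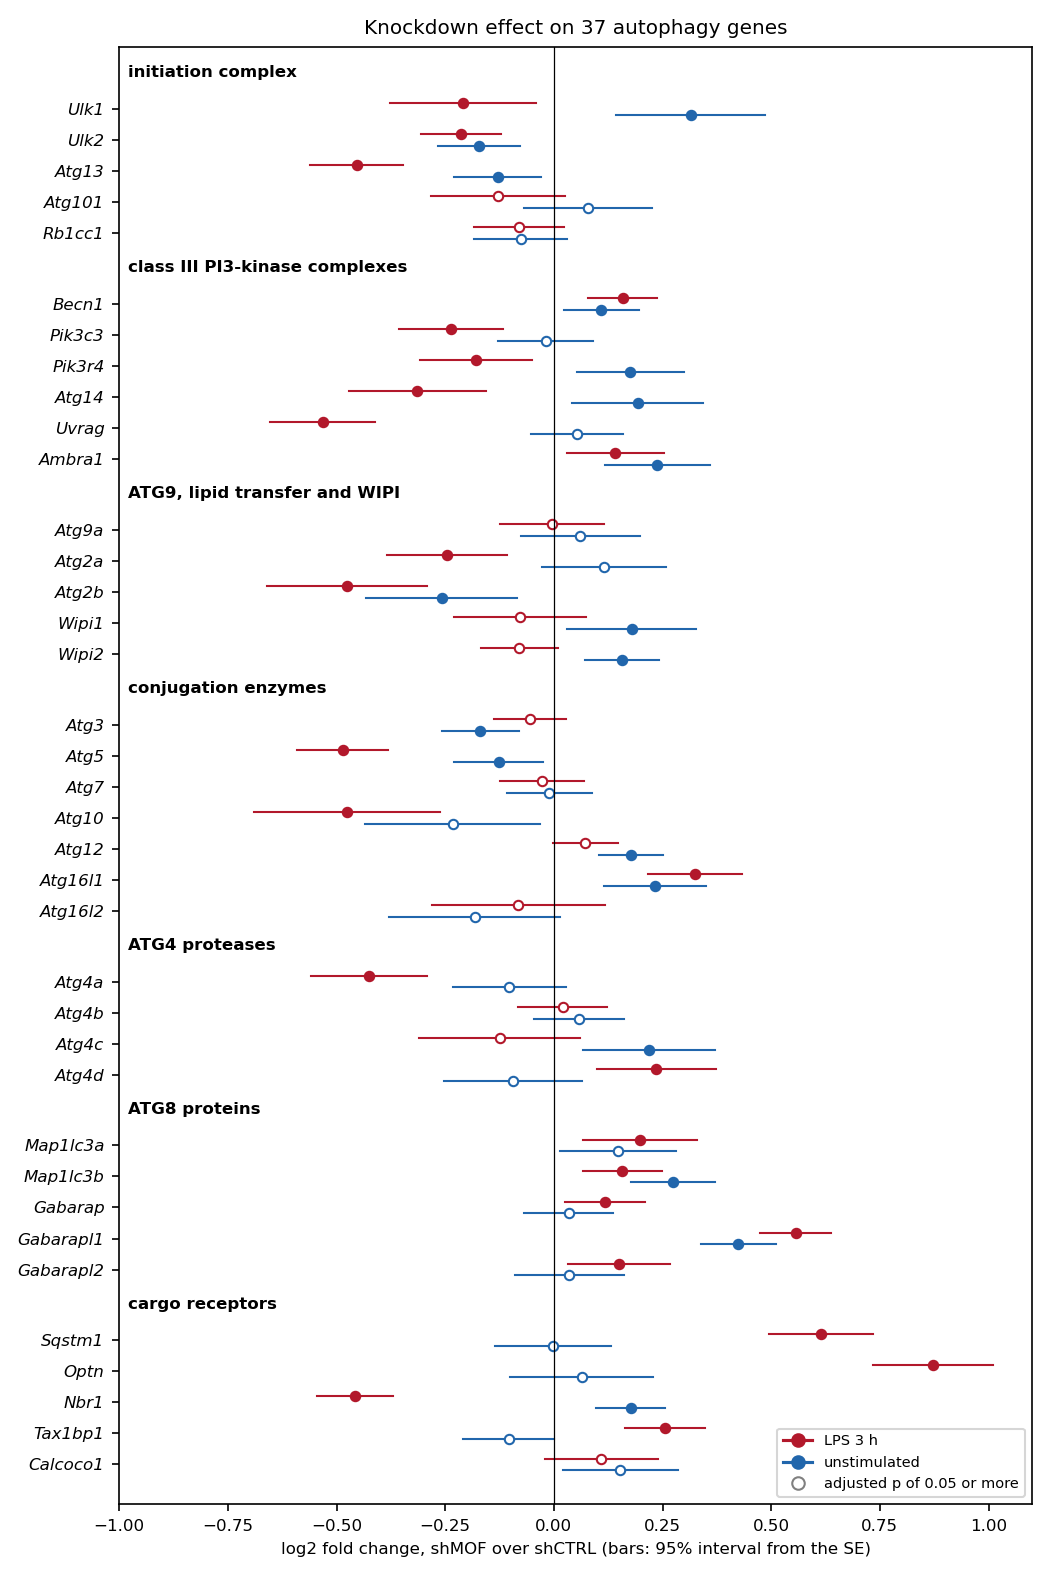
Log2 fold change of shMOF over shCTRL at LPS 3 h (red) and unstimulated (blue) for the 37 autophagy genes by role, from the authors' deposited table, with bars for the 95% interval from the SE and open symbols for an adjusted p of 0.05 or more. The 5 ATG8 genes lie above 0 in both states, and Optn has the largest value, 0.87 at LPS 3 h.

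Cargo receptors link ubiquitinated cargo to ATG8 proteins, and they held the largest changes of the set at LPS 3 h. At LPS 3 h 3 of the 5 rose in shMOF and 1 fell (80% changed, against 48% of all genes). In unstimulated cells 1 rose (20% changed, against 39.1% of all genes). The effect differed between states for 4 of the 5 (80%, against 30.6% of all genes tested). Optn (ENSMUSG00000026672.11, chromosome 2 from 5020642 to 5064051, minus strand, GRCm38), an adaptor for ubiquitin-coated bacteria and mitochondria, had a log2 change of 0.87 (adjusted p = 1.19e-33, SE 0.07) at LPS 3 h per the authors' deposited table, or 1.83-fold with a 95% interval of 1.66 to 2.01. Its log2 change in unstimulated cells was 0.06 (adjusted p = 0.594, SE 0.08) per the authors' deposited table, and the difference was 0.81 (adjusted p = 6.16e-12, SE 0.11). Sqstm1 (ENSMUSG00000015837.15, chromosome 11 from 50199366 to 50210827, minus strand) encodes p62, the receptor that also gathers ubiquitinated proteins into condensates and binds the NRF2 inhibitor KEAP1. It had a log2 change of 0.61 (adjusted p = 3.49e-22, SE 0.06) at LPS 3 h, or 1.53-fold, and -0.0020 (adjusted p = 0.986, SE 0.07) unstimulated, per the authors' deposited table, with a difference of 0.62 (adjusted p = 6.18e-10, SE 0.09). Tax1bp1, which also restrains NF-kB signalling with the enzyme A20, had a log2 change of 0.26 (adjusted p = 3.58e-07, SE 0.05) at LPS 3 h and -0.10 (adjusted p = 0.109, SE 0.05) unstimulated, per the authors' deposited table, with a difference of 0.36 (adjusted p = 5.29e-06, SE 0.07).

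At LPS 3 h Nbr1 was the 1 receptor of the 5 that fell. It encodes a p62-related receptor of ubiquitinated aggregates and peroxisomes, and is found at 101552149 to 101581951 of chromosome 11, plus strand (ENSMUSG00000017119.19). In the authors' deposited table it had a log2 change of -0.46 (adjusted p = 1.31e-23, SE 0.04) at LPS 3 h, or 0.728-fold of shCTRL, and of 0.18 (adjusted p = 6.59e-05, SE 0.04) in unstimulated cells, or 1.13-fold. The difference of -0.63 (adjusted p = 7.14e-24, SE 0.06) had the smallest p of the 37. Calcoco1, a receptor for endoplasmic reticulum, had a log2 change of 0.11 (adjusted p = 0.166) with LPS and 0.15 (adjusted p = 0.0599) without, per the authors' deposited table, and passed in neither state.

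**Figure D3:**
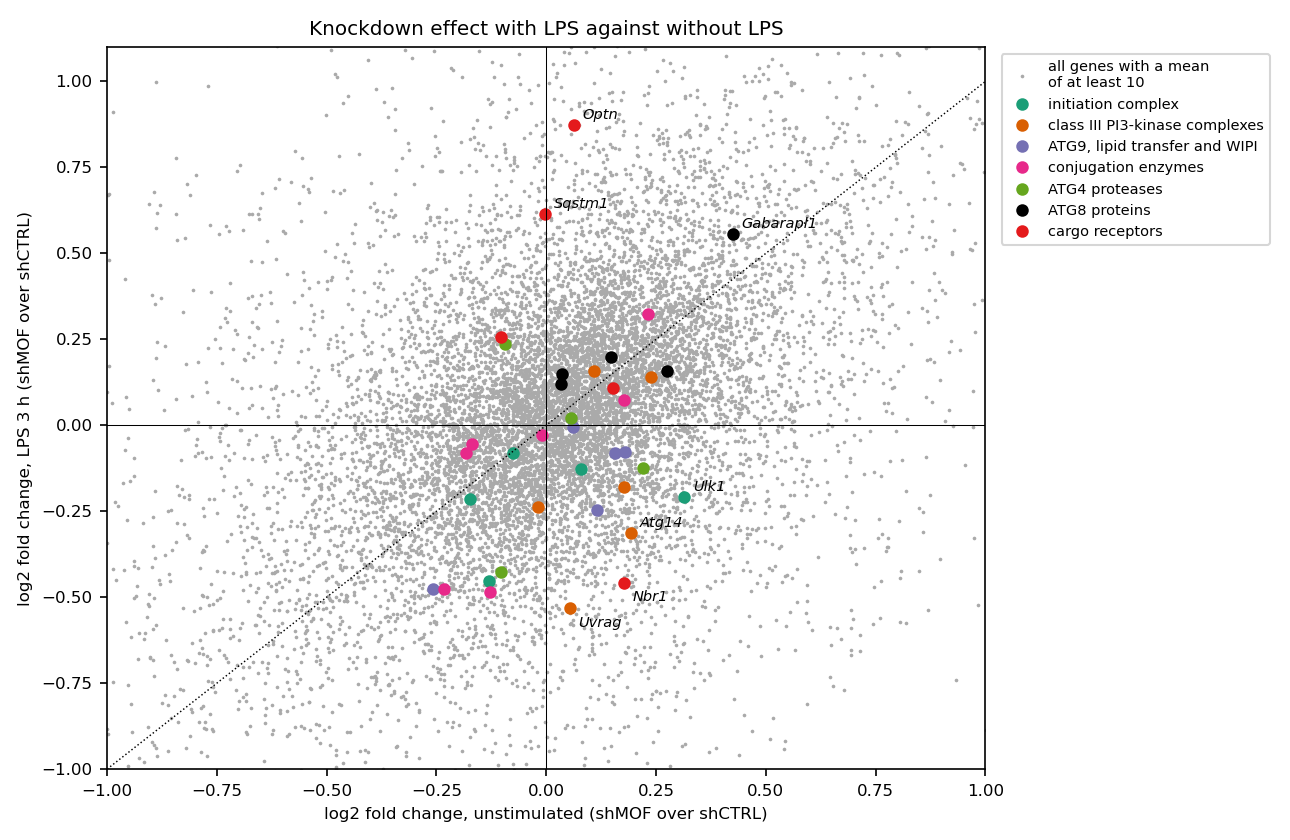
Log2 fold change of shMOF over shCTRL at LPS 3 h (vertical axis) against that in unstimulated cells (horizontal axis), from the authors' deposited table, for the 37 autophagy genes coloured by role and for all genes with a mean of at least 10 (grey, 874 of them outside the axes). The dotted line marks equal effects, and Optn (0.87 against 0.06) and Sqstm1 lie far above it while Nbr1 (-0.46 against 0.18) and Uvrag lie far below.

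The ATG8 proteins coat the membrane and bind both cargo receptors and fusion factors. All 5 rose at LPS 3 h, where 28.1% of all genes rose. In unstimulated cells 2 of the 5 rose, where 21.3% of all genes did. With centred fold changes Gabarap (0.09, adjusted p = 0.109) and Gabarapl2 (0.12, adjusted p = 0.0868) no longer passed at LPS 3 h. Gabarapl1 (ENSMUSG00000030161.8, chromosome 6 from 129533160 to 129542346, plus strand) had the largest change, with a log2 fold change of 0.56 (adjusted p = 1.94e-38, SE 0.04) at LPS 3 h and of 0.42 (adjusted p = 1.57e-20, SE 0.04) unstimulated, per the authors' deposited table (1.47-fold with LPS and 1.34-fold without). No other of the 37 genes had so small a p in either state. Map1lc3b, which encodes LC3B, the common marker of autophagosomes, had a log2 change of 0.16 (adjusted p = 0.00206, SE 0.05) at LPS 3 h and 0.27 (adjusted p = 2.29e-07, SE 0.05) unstimulated, per the authors' deposited table. The authors' deposited table gave Map1lc3a a log2 change of 0.20 (adjusted p = 0.00839) at LPS 3 h and 0.15 (adjusted p = 0.0697) unstimulated. Gabarap had a log2 change of 0.12 (adjusted p = 0.0268) at LPS 3 h and 0.03 (adjusted p = 0.657) unstimulated, per the authors' deposited table. For Gabarapl2 the authors' deposited table holds a log2 change of 0.15 (adjusted p = 0.0283) at LPS 3 h and 0.04 (adjusted p = 0.711) unstimulated. None of the 5 differences between states passed, and their 95% intervals reached at most 0.29 and at least -0.25. That of Gabarapl1 was 0.13 (interval 0.01 to 0.25, adjusted p = 0.0872).

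The initiation complex receives signals from MTORC1 and AMPK. At LPS 3 h 3 of its 5 genes fell and none rose (60% changed, against 48% of all genes). In unstimulated cells 1 rose and 2 fell (60% changed, against 39.1% of all genes). The kinase gene Ulk1 (chromosome 5 from 110784488 to 110810097, minus strand) had a log2 change of -0.21 (adjusted p = 0.0324, SE 0.09) at LPS 3 h and of 0.31 (adjusted p = 0.00131, SE 0.09) unstimulated, per the authors' deposited table. These lie on opposite sides of 0, and the difference was -0.52 (adjusted p = 1.61e-04, SE 0.12). Its relative Ulk2 fell in both states, with a log2 change of -0.21 (adjusted p = 2.10e-05, SE 0.05) at LPS 3 h and -0.17 (adjusted p = 0.00141, SE 0.05) unstimulated, per the authors' deposited table, and a difference of -0.04 with a 95% interval of -0.17 to 0.09. Atg13, the adaptor that binds ULK1, had a log2 change of -0.45 (adjusted p = 1.48e-15, SE 0.05) at LPS 3 h, or 0.730-fold, and -0.13 (adjusted p = 0.0311, SE 0.05) unstimulated, per the authors' deposited table, and the difference was -0.32 (adjusted p = 1.33e-04). Atg101, which stabilises ATG13, had a log2 change of -0.13 (adjusted p = 0.173) with LPS and 0.08 (adjusted p = 0.444) without, and the scaffold gene Rb1cc1 (FIP200) one of -0.08 (adjusted p = 0.209) with LPS and -0.08 (adjusted p = 0.283) without, per the authors' deposited table.

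All 6 genes of the class III PI3-kinase complexes changed at LPS 3 h, 2 higher and 4 lower, where 48% of all genes changed. In unstimulated cells 4 rose (66.7% changed, against 39.1% of all genes). VPS34 works in 2 forms, one with ATG14 at the forming autophagosome and one with UVRAG at endosomes. The subunit gene of each form was lower in shMOF at LPS 3 h. Uvrag (ENSMUSG00000035354.9, chromosome 7 from 98885021 to 99141141, minus strand) had a log2 change of -0.53 (adjusted p = 8.61e-17, SE 0.06) at LPS 3 h, or 0.692-fold of shCTRL with a 95% interval of 0.636 to 0.752, and of 0.05 (adjusted p = 0.474, SE 0.05) unstimulated, per the authors' deposited table. The difference was -0.58 (adjusted p = 3.13e-11, SE 0.08). Atg14 had a log2 change of -0.31 (adjusted p = 3.30e-04, SE 0.08) at LPS 3 h and 0.19 (adjusted p = 0.0333, SE 0.08) unstimulated, per the authors' deposited table, with a difference of -0.51 (adjusted p = 5.19e-05, SE 0.11). The regulatory subunit gene Pik3r4 (VPS15) likewise had a log2 change of -0.18 (adjusted p = 0.0158, SE 0.07) at LPS 3 h and 0.18 (adjusted p = 0.0158, SE 0.06) unstimulated, per the authors' deposited table, and a difference of -0.35 (adjusted p = 6.81e-04). With centred fold changes the unstimulated rises of Pik3r4 (0.15, adjusted p = 0.0531) and Atg14 (0.16, adjusted p = 0.0818) no longer passed. The catalytic gene Pik3c3 had a log2 change of -0.24 (adjusted p = 3.33e-04, SE 0.06) at LPS 3 h and -0.02 (adjusted p = 0.832, SE 0.06) unstimulated, per the authors' deposited table, with a difference of -0.22 (adjusted p = 0.0300). Becn1 (Beclin 1), the core of both forms, had a log2 change of 0.16 (adjusted p = 3.37e-04) with LPS and 0.11 (adjusted p = 0.0343) without, and its partner Ambra1 one of 0.14 (adjusted p = 0.0279) with LPS and 0.24 (adjusted p = 4.96e-04) without, per the authors' deposited table. Their differences of 0.05 (95% interval -0.07 to 0.17) and -0.10 (-0.26 to 0.07) did not pass. With centred fold changes Becn1 unstimulated (0.08, adjusted p = 0.149) and Ambra1 at LPS 3 h (0.11, adjusted p = 0.0915) no longer passed.

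Among the genes for lipid supply and membrane recognition, 2 of 5 fell at LPS 3 h (40% changed, against 48% of all genes). In unstimulated cells 2 rose and 1 fell (60% changed, against 39.1% of all genes). The lipid transfer gene Atg2a had a log2 change of -0.25 (adjusted p = 0.00159, SE 0.07) at LPS 3 h and 0.11 (adjusted p = 0.218, SE 0.07) unstimulated, per the authors' deposited table, with a difference of -0.36 (adjusted p = 0.00231). Its relative Atg2b had a log2 change of -0.48 (adjusted p = 1.91e-06, SE 0.09) at LPS 3 h and -0.26 (adjusted p = 0.0112, SE 0.09) unstimulated, per the authors' deposited table, and the difference of -0.22 (interval -0.47 to 0.03, adjusted p = 0.199) did not pass. The phosphoinositide-binding gene Wipi2, which recruits ATG16L1, had a log2 change of -0.08 (adjusted p = 0.137) at LPS 3 h and 0.16 (adjusted p = 0.00131) unstimulated, per the authors' deposited table, with a difference of -0.24 (adjusted p = 0.00107). Wipi1 had a log2 change of -0.08 (adjusted p = 0.434) with LPS and 0.18 (adjusted p = 0.0466) without, per the authors' deposited table, and a difference of -0.26 (adjusted p = 0.0570). With centred fold changes the unstimulated rise of Wipi1 (0.15, adjusted p = 0.111) no longer passed. The scramblase gene Atg9a had a log2 change of -0.0040 (adjusted p = 0.963) with LPS and 0.06 (adjusted p = 0.536) without, per the authors' deposited table.

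The conjugation enzymes join ATG12 to ATG5 and the ATG8 proteins to lipid. At LPS 3 h 1 of 7 rose and 2 fell (42.9% changed, against 48% of all genes). In unstimulated cells 2 rose and 2 fell (57.1% changed, against 39.1% of all genes). Atg5 (ENSMUSG00000038160.6, chromosome 10 from 44268358 to 44364291, plus strand) had a log2 change of -0.49 (adjusted p = 1.82e-18, SE 0.05) at LPS 3 h, or 0.714-fold, and of -0.13 (adjusted p = 0.0408, SE 0.05) unstimulated, per the authors' deposited table, with a difference of -0.36 (adjusted p = 1.97e-05, SE 0.075). It was the only 1 of the 7 whose effect differed between states. Its partner Atg16l1, which places the ATG12-ATG5 conjugate on the membrane, rose in both states, with a log2 change of 0.32 (adjusted p = 3.14e-08, SE 0.06) at LPS 3 h and 0.23 (adjusted p = 5.01e-04, SE 0.06) unstimulated, per the authors' deposited table. Atg10, the E2-like enzyme for ATG12, had a log2 change of -0.48 (adjusted p = 5.47e-05, SE 0.11) at LPS 3 h and -0.23 (adjusted p = 0.0574, SE 0.10) unstimulated, per the authors' deposited table, on the lowest mean count of the set. Atg3, the E2-like enzyme for the ATG8 proteins, had a log2 change of -0.05 (adjusted p = 0.304) with LPS and -0.17 (adjusted p = 7.67e-04) without, and Atg12 one of 0.07 (adjusted p = 0.103) with LPS and 0.18 (adjusted p = 1.61e-05) without, per the authors' deposited table. Atg7, the E1-like enzyme, had a log2 change of -0.03 (95% interval -0.12 to 0.07) with LPS and -0.01 (-0.11 to 0.09) without, per the authors' deposited table. Atg16l2 had a log2 change of -0.08 (adjusted p = 0.538) with LPS and -0.18 (adjusted p = 0.145) without, per the authors' deposited table, and neither gene passed.

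The 4 ATG4 proteases, which trim ATG8 proteins and release them from lipid, did not move together. Atg4a had a log2 change of -0.43 (adjusted p = 2.46e-09, SE 0.07) at LPS 3 h, or 0.744-fold, and -0.10 (adjusted p = 0.233, SE 0.07) unstimulated, per the authors' deposited table, with a difference of -0.32 (adjusted p = 0.00369). Atg4d had a log2 change of 0.24 (adjusted p = 0.00226, SE 0.07) at LPS 3 h and -0.09 (adjusted p = 0.389, SE 0.08) unstimulated, per the authors' deposited table, with a difference of 0.33 (adjusted p = 0.00961). The authors' deposited table gave Atg4c a log2 change of -0.12 (adjusted p = 0.286, SE 0.09) at LPS 3 h and 0.22 (adjusted p = 0.0143, SE 0.08) unstimulated, with a difference of -0.34 (adjusted p = 0.0198). Atg4b, the most active family member on LC3, had a log2 change of 0.02 (adjusted p = 0.778) with LPS and 0.06 (adjusted p = 0.426) without, per the authors' deposited table, and its sign at LPS 3 h turned with centring. Atg4a shares 34.7% of its 100-base transcript stretches with the pseudogene Atg4a-ps, whose mean normalized count was 7.91 beside 623.4 for Atg4a per the authors' deposited table.

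**Figure D4:**
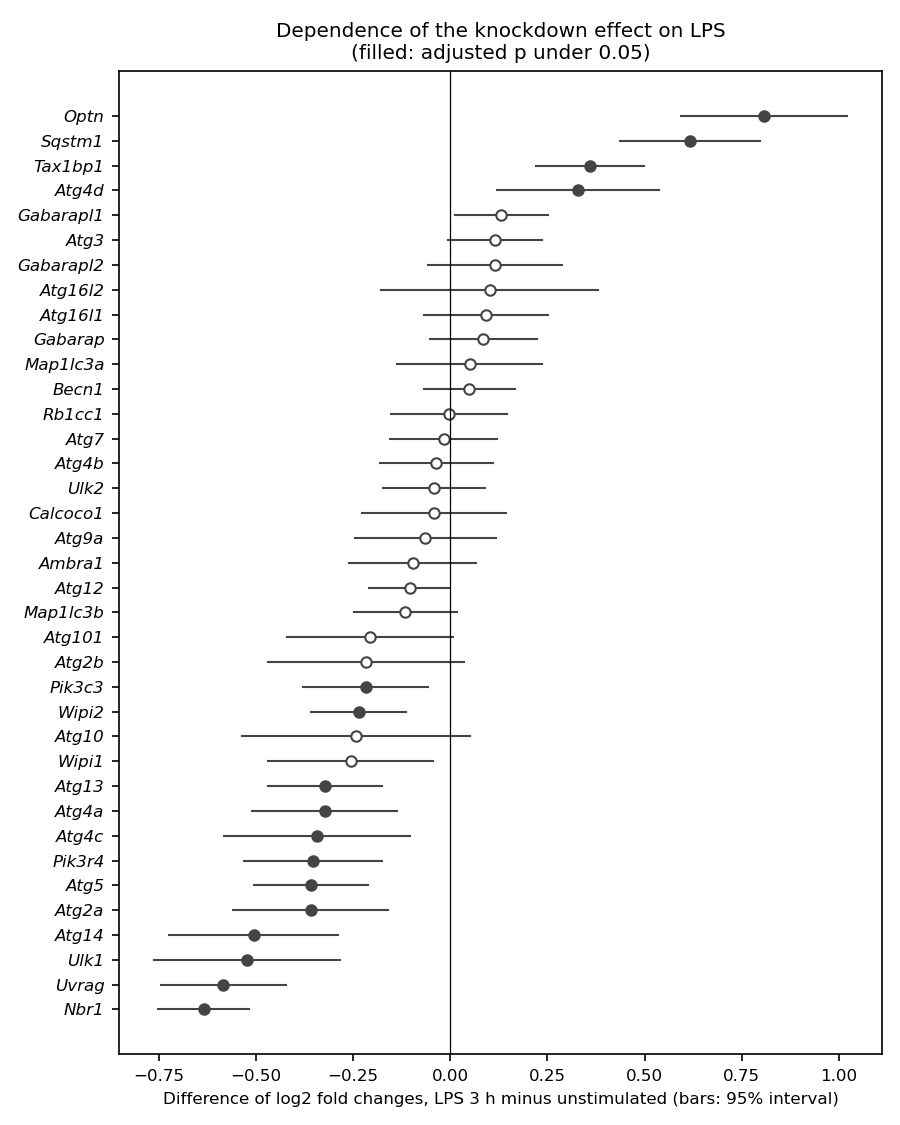
Difference of the log2 fold changes (LPS 3 h effect minus unstimulated effect) for each of the 37 autophagy genes, with 95% intervals as bars and filled points for an adjusted p under 0.05. The 4 filled points above 0 are Optn, Sqstm1, Tax1bp1 and Atg4d, and the 12 filled points below 0 include Nbr1 (-0.63) and Uvrag (-0.58).

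Of the 37 genes, 11 have another gene that starts within 1000 bases on the opposite strand, a limit set after values were seen, and 8 of these neighbours encode proteins. At LPS 3 h 2 of the 8 neighbours rose and 3 fell, where 48% of all genes changed. In unstimulated cells 2 rose and 2 fell, where 39.1% of all genes changed. Whether the neighbours depart from these shares was not tested. At LPS 3 h Brca1 and Mgat4b moved in the direction of their autophagy gene, and in unstimulated cells they did not. Brca1, a DNA repair gene that starts 194 bases from Nbr1, had a log2 change of -2.11 (adjusted p = 1.02e-40) at LPS 3 h and of -1.67 (adjusted p = 6.06e-53) unstimulated, per the authors' deposited table. It was thus lower in shMOF in both states, while Nbr1 was lower with LPS and higher without. Mgat4b, a glycosyltransferase gene 63 bases from Sqstm1, had a log2 change of 0.83 (adjusted p = 2.62e-40) at LPS 3 h and 0.58 (adjusted p = 9.03e-16) unstimulated, per the authors' deposited table. It was thus higher in shMOF in both states, whereas Sqstm1 was called higher in shMOF at LPS 3 h alone. Their differences between states were 0.24 (adjusted p = 0.0299, SE 0.09) for Mgat4b and 0.62 for Sqstm1. Slc35a5, a nucleotide sugar transporter gene 79 bases from Atg3, had a log2 change of -1.04 (adjusted p = 6.46e-52) with LPS and -0.93 (adjusted p = 4.17e-54) without, per the authors' deposited table, against -0.05 with LPS and -0.17 without for Atg3. Ankzf1, whose start region overlaps that of Atg9a, had a log2 change of -0.37 (adjusted p = 3.34e-04) with LPS and 0.06 (adjusted p = 0.549) without, per the authors' deposited table, with a difference of -0.44 (adjusted p = 0.00195). The other 4 coding neighbours (Harbi1, Gskip, Ap3s1 and Psmd10) had log2 fold changes between -0.43 and 0.34 per the authors' deposited table.

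**Figure D5:**
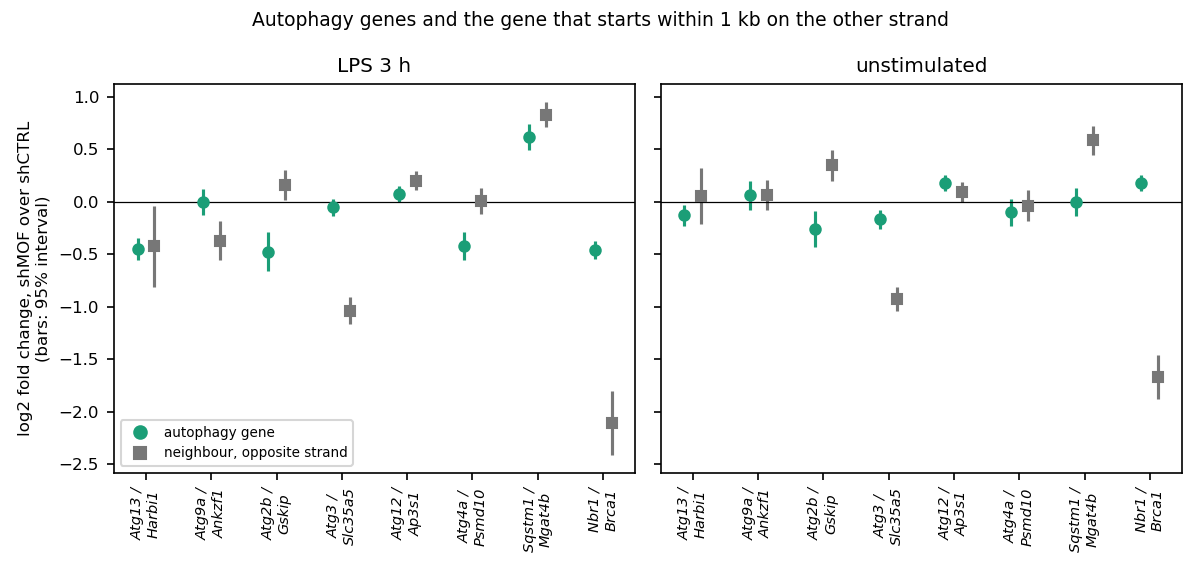
Log2 fold change of shMOF over shCTRL at LPS 3 h (left) and unstimulated (right), from the authors' deposited table, for 8 autophagy genes (circles) and the coding gene that starts within 1 kb on the opposite strand (squares), with bars for the 95% interval. Brca1 beside Nbr1 lies at -2.11 with LPS and -1.67 without, and Mgat4b beside Sqstm1 at 0.83 with LPS and 0.58 without.

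Some members also overlap genes on the opposite strand, and the sources used here do not say whether reads were counted by strand. Mrnip shares 17.3% of the exon bases of Sqstm1 and had a mean normalized count of 25.9 beside 78035 for Sqstm1 per the authors' deposited table. Cntd1 shares 43.9% of those of Becn1, with a mean of 8.24 beside 2946. The noncoding gene 1700101I11Rik shares 28.3% of those of Gabarapl1, with a mean of 12.3 beside 3847. The antisense gene Gm45187 shares 17.6% of those of Uvrag and was not among the genes measured. On the same strand, Gm29253 shares 31.8% of those of Atg9a and was not among the genes measured. Kri1 shares 19.3% of those of Atg4d, and there the partner is the larger, with a mean of 1206 beside 520.4. Kri1 had log2 fold changes of 0.10 (adjusted p = 0.114) with LPS and -0.0023 (adjusted p = 0.980) without, per the authors' deposited table. Its part in the values of Atg4d was not tested.

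Beyond the core set, 61 further autophagy genes of a list were measured, from upstream kinases to lysosomal fusion. The list was chosen with earlier results of these data known. At LPS 3 h 15 rose and 19 fell (55.7%, against 48% of all genes), and in unstimulated cells 23 rose and 13 fell (59.0%, against 39.1% of all genes). Of their differences 11 were called positive and 14 negative (41%, against 30.6% of all genes). The MTORC1 activator Rheb had a log2 change of 0.20 (adjusted p = 1.19e-06) at LPS 3 h and -0.21 (adjusted p = 8.27e-06) unstimulated, per the authors' deposited table, with a difference of 0.41 (adjusted p = 5.28e-11). Its inhibitor Tsc1 had a log2 change of -0.53 (adjusted p = 6.60e-10) with LPS and -0.13 (adjusted p = 0.196) without, and Deptor, an inhibitory subunit of MTORC1, one of -0.83 (adjusted p = 3.85e-07) with LPS and -0.40 (adjusted p = 0.0212) without, per the authors' deposited table. The AMPK catalytic gene Prkaa1 fell in both states, with a log2 change of -0.25 (adjusted p = 7.55e-07) with LPS and -0.26 (adjusted p = 1.81e-06) without, per the authors' deposited table. Of the regulatory subunits, Prkab1 had a log2 change of -0.05 (adjusted p = 0.517) with LPS and 0.32 (adjusted p = 6.33e-09) without, and Prkag2 one of -0.26 (adjusted p = 0.00193) with LPS and -0.09 (adjusted p = 0.271) without, per the authors' deposited table.

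Of the 6 regulators of the PI3-kinase complexes, 3 rose and 1 fell (Rubcn) at LPS 3 h (66.7% changed, against 48% of all genes). In unstimulated cells 3 rose and 0 fell (50% changed, against 39.1% of all genes). Rubcn (Rubicon), an inhibitor that binds the UVRAG form, had a log2 change of -0.51 (adjusted p = 9.78e-09, SE 0.08) at LPS 3 h and 0.15 (adjusted p = 0.116, SE 0.08) unstimulated, per the authors' deposited table, with a difference of -0.66 (adjusted p = 1.30e-07). Uvrag had log2 changes of -0.53 with LPS and 0.05 without, per the authors' deposited table. Rubcnl (Pacer), a relative of Rubicon, had a log2 change of 1.25 (adjusted p = 1.14e-10, SE 0.18) with LPS and 1.25 (adjusted p = 1.58e-09, SE 0.19) without, per the authors' deposited table, on a mean normalized count of 183.0. Nrbf2, a partner of the ATG14 form, had a log2 change of 0.57 (adjusted p = 4.08e-22, SE 0.06) with LPS and 0.18 (adjusted p = 0.0199, SE 0.07) without, per the authors' deposited table. Of the phagophore membrane genes, the lipid scramblase gene Tmem41b had a log2 change of -0.31 (adjusted p = 1.89e-04) with LPS and -0.35 (adjusted p = 1.35e-05) without, and Ei24 one of -0.34 (adjusted p = 2.08e-14) with LPS and -0.22 (adjusted p = 2.74e-06) without, per the authors' deposited table. The WIPI relative Wdr45b had a log2 change of 0.21 (adjusted p = 5.95e-06) with LPS and 0.20 (adjusted p = 5.33e-05) without, per the authors' deposited table.

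Among receptors anchored in organelles, Phb2, an inner mitochondrial membrane protein, fell in both states, with a log2 change of -0.78 (adjusted p = 5.93e-57, SE 0.05) at LPS 3 h and -1.005 (adjusted p = 3.26e-81, SE 0.05) unstimulated, per the authors' deposited table. Retreg1, a receptor for endoplasmic reticulum listed in the tables as Fam134b, had a log2 change of 0.42 (adjusted p = 7.97e-26) with LPS and 0.13 (adjusted p = 0.00171) without, per the authors' deposited table. Pink1, the kinase that marks damaged mitochondria, had a log2 change of 0.58 (adjusted p = 6.30e-10) with LPS and 0.39 (adjusted p = 2.34e-04) without, per the authors' deposited table. At the fusion step, the HOPS tether genes Vps33a, with a log2 change of -0.68 (adjusted p = 1.13e-48) with LPS and -0.25 (adjusted p = 1.38e-07) without, and Vps18, with one of -0.53 (adjusted p = 3.78e-17) with LPS and -0.08 (adjusted p = 0.306) without, were lower at LPS 3 h per the authors' deposited table. Their differences between states were -0.43 (adjusted p = 2.54e-10) for Vps33a and -0.45 (adjusted p = 1.34e-06) for Vps18. The other HOPS genes of the list did not all fall at LPS 3 h. Of all 17 fusion genes, 4 rose and 7 fell at LPS 3 h (64.7% changed, against 48% of all genes). In unstimulated cells 8 rose and 5 fell (76.5% changed, against 39.1% of all genes). Rab7, the late endosome GTPase that recruits HOPS effectors, had a log2 change of -0.45 (adjusted p = 6.67e-33) with LPS and -0.50 (adjusted p = 1.44e-33) without, per the authors' deposited table, with a difference of 0.05 that did not pass (adjusted p = 0.530).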

How the data were processed

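RNA was sequenced from 12 libraries of bone marrow-derived macrophages. Per the labels' protocol, RNA of all samples was extracted at once, and libraries were stranded, made from mRNA and read from both ends over 100 bases. The mm10 build and DESeq2, whose version is missing, come from the submitters' processing notes on the authors' work. Aligner, counter, annotation and use of strand in counting are unknown (not given in the sources used here).

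Each of 2 tables holds 1 comparison of shMOF with shCTRL and no value per library, so depth per library is unknown and precision is known through the SE only. The mean normalized count is a signal that the authors deposited per gene, per the file headers, and it was identical in both tables for all 14264 genes. The authors' log2 fold change, its SE and the Wald statistic, a score that equals the change over its SE, are in the same tables per the file headers. The deposited p-value was the two-sided normal p of that score, and the authors' adjusted p had been made by Benjamini-Hochberg over all genes but 277 at LPS 3 h, whose means were at most 5.57 and which were left without one.

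Calls used the authors' adjusted p at 0.05. A test on counts per library had been planned in case the tables held them, and they do not. The difference of effects was the LPS 3 h change minus the unstimulated change, divided by the square root of the sum of both squared SEs. Its two-sided normal p was adjusted by Benjamini-Hochberg over the 12994 genes with a mean of at least 10. The comparisons share no library, and their errors were taken as uncorrelated. Intervals are 95% normal intervals from the SE. The code was tested on simulated data. LPS against no LPS was not tested.

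The 37 genes, the list of 63 other autophagy genes (61 measured, 3 under another name, 2 not analysed here) and the markers were chosen with earlier results of these data known. All 37 genes are named, with Kat8, and of the other genes up to 3 a role group with the smallest p in either state. Neighbours, overlapping genes and printed sequences were chosen after values were seen. GENCODE M21 (GRCm38, the same assembly as mm10) gave positions and exon lengths for 14214 genes by Ensembl ID, and RefSeq gave promoter windows on GRCm38.p6. Tools were Python 3.11.15, pandas 2.3.3, numpy 2.4.6, scipy 1.17.1 and matplotlib 3.10.9. Alternatives were a threshold of 0.01, centred fold changes, adjustment over every gene or over means of at least 50, a null of at most 0.25, an empirical null and an error correlation of 0.25.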

Additional observations from a re-analysis of the deposited data

Results flagged for a closer look

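The knockdown effect differed between LPS 3 h and unstimulated cells, by the test of the difference itself, for 27 of the genes named. Of these, 16 were among the 37 autophagy genes of the core set (43.2%), against 30.6% of all 12994 genes tested. The core set was itself chosen with earlier results of these data known. The other autophagy genes named were picked by their smallest p in either state, and the neighbours after values were seen. Their count is therefore not a share to set against all genes. Differences are LPS 3 h effect minus unstimulated effect on the log2 scale. Among the cargo receptors they were 0.81 for Optn, 0.62 for Sqstm1, 0.36 for Tax1bp1 and -0.63 for Nbr1. In the initiation complex they were -0.52 for Ulk1 and -0.32 for Atg13. In the PI3-kinase complexes they were -0.58 for Uvrag, -0.51 for Atg14, -0.35 for Pik3r4 and -0.22 for Pik3c3. For membrane supply and conjugation they were -0.36 for Atg2a, -0.24 for Wipi2 and -0.36 for Atg5. The proteases had -0.32 (Atg4a), -0.34 (Atg4c) and 0.33 (Atg4d).

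Of the other autophagy genes, Rheb had 0.41, Tsc1 -0.40, Prkab1 -0.37, Nrbf2 0.39, Rubcn -0.66, Phb2 0.22, Retreg1 (Fam134b) 0.28, Vps18 -0.45 and Vps33a -0.43. The neighbours Ankzf1 and Mgat4b had -0.44 and 0.24. Proliferation markers also differed between states, with 6 of 8 differences called, all positive, and a median of 0.56. Of the 10 macrophage markers, 6 differences were called, 1 positive and 5 negative, with a median of -0.16. Both lists stand against 30.6% of all genes tested. The part of both lists in the values above was not tested.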

How the results depend on the processing

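No paired analysis was possible because the tables hold no values per library, and leaving out libraries was not run for the same reason. Under a null of an absolute change of at most 0.25, the core genes called numbered 7 at LPS 3 h, 1 unstimulated and 4 for the difference, and the other autophagy genes 12, 3 and 2, where all genes called came to 15.6%, 9.39% and 6.88%. With an empirical null, in which the Wald statistic is scaled by its spread over all genes (3.46 at LPS 3 h, 2.80 unstimulated and 2.25 for the difference), 2 core genes were called at LPS 3 h (Gabarapl1 and Optn), 1 unstimulated (Gabarapl1) and 2 for the difference (Optn and Nbr1), and of the other genes 3, 2 and 1. All genes then called came to 3.47%, 3.98% and 2.58%. A threshold of 0.01 left 10 core genes unstimulated (27%, against 30.5% of all genes). By construction these settings ask for larger changes or smaller p-values. The remaining counts of calls stayed within 1.5 times of those reported.

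Centring changed the share of higher calls unstimulated to 56.2% (9 higher and 7 lower) from 72.2% for the core genes and to 53.3% from 63.9% (16 and 14, against 23 and 13) for the other genes. It reversed the sign of Atg4b (-0.0088, adjusted p = 0.910) and Psmd10 (-0.0236, adjusted p = 0.795) at LPS 3 h, both uncalled before and after. Wipi1 gained a call of its difference over means of at least 50 (adjusted p = 0.0493) and with an error correlation of 0.25 (0.0200), and Gabarapl1 under that correlation (0.0359).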
